A study of Rattus norvegicus with 25 samples.

Results

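Mitochondrial ribosomal protein genes are described here in the rat striatum after gestational nicotine or gestational food restriction. They were taken as all genes whose single annotated symbol begins with Mrpl or Mrps and a digit. Where a gene had several probe sets, the one with the highest mean over all arrays stood for it. This gave 68 genes, 41 of the large subunit series (Mrpl) and 27 of the small subunit series (Mrps), out of 14506 genes with a single symbol on the array. Probe sets whose mean fell in the lower part of all means (under the median) were not tested, and all 68 genes were above that limit. One further probe set, annotated to Mrpl20 together with another gene, was left out.

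RNA from the striatum of male Lister Hooded rats, killed between PND 35 and 42, was hybridised to Affymetrix rat gene 1.0st arrays, with 1 array for each rat. Con offspring (n = 8) were born to dams with food and water freely available, Nic offspring (n = 7) to dams drinking nicotine in solution, and Con-Pf offspring (n = 10) to dams given each day no more food than the nicotine dams had eaten. The litter and the array batch of each rat are not given in the sources used here, so p-values measure the spread between animals, some of which may be littermates. Con-Pf 9 and 10 carry a Con-Pf title but a control description and were used as Con-Pf. The study's methods give both readings. Their statistics section states the group sizes obtained when both count as Con, whereas their account of the animals used and the arrays removed leads to the sizes by title. The main counts are therefore also given with both counted as Con.

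Mitochondria keep their own ribosome, which makes the few respiratory chain proteins encoded in mitochondrial DNA. Its RNAs come from the mitochondrial genome, whereas every protein of it is encoded in the nucleus, made by cytosolic ribosomes and imported. Some of these proteins have counterparts in bacterial ribosomes, and others are found only in mitochondria. Striatal projection neurons depend heavily on respiration, and inherited defects of single mitoribosomal proteins cause mitochondrial disease. Of the 68 genes, 24 encode large subunit proteins with a bacterial homologue, 19 large subunit proteins specific to mitochondria, 15 small subunit proteins with a bacterial homologue and 10 small subunit proteins specific to mitochondria.

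RefSeq promoter windows in build GRCr8, which run from 250 bases before to 50 bases after the annotated start, were found for 54 of the 68 genes, on 17 chromosomes. Factors long linked to genes of mitochondrial proteins are NRF1, the ETS factor GABP and YY1. The letters CCGGAAG (ETS) were found on either strand in 18 of the 54 windows (33.3%), against 18% of the windows of all genes kept and 9.22% of all windows. GCGCNTGCG (NRF1) was found in 12 windows (22.2%, against 14% and 6.34%), and GATGGCG (YY1) in 11 (20.4%, against 7.83% and 4.26%). At least 1 of these motifs lay in 31 windows (57.4%), against 34% of the windows of genes kept. GGGCGG (SP1) was found in 53.7% of the windows, below the 64.6% of genes kept, and CACGTG (E-box) in 11.1%, against 9.74%. The YY1 letters lay in 7 of the 17 windows of mitochondria-specific large subunit genes (41.2%) and in 2 of the 18 of large subunit genes with a bacterial homologue (11.1%). In the small subunit they lay in 1 of 7 windows of mitochondria-specific genes (14.3%). Of small subunit genes with a bacterial homologue, 1 of 12 windows held them (8.33%). Matches to different motifs can overlap, and a match describes letters only, not binding.

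Stretches of 100 bases ahead of the start are shown for the Mrps18 paralogues and for the other genes that lead the comparison of Con-Pf with Con further on. Capitals mark matches to the ETS or NRF1 letters, on either strand, that lie whole within the stretch. Mrps18a, Mrps18c, Mrpl23, Mrpl48 and Mrpl52 each hold an ETS match, Mrps18b a palindromic NRF1 match that reads on both strands and an ETS match that begins at position -3 and runs past the printed end, and Mrpl37 none before its start.
Mrps18a (chr9:22367381-22367480, minus strand): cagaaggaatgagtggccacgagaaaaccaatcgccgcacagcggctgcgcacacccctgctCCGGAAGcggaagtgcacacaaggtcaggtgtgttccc
Mrps18b (chr20:2842906-2843005, plus strand): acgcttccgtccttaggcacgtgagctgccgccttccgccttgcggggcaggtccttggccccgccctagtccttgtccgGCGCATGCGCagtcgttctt
Mrps18c (chr14:9122967-9123066, minus strand, position -160 to -61 from the start): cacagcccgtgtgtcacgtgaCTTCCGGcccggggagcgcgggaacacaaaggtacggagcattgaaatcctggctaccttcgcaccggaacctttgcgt
Mrpl23 (chr1:207116830-207116929, plus strand): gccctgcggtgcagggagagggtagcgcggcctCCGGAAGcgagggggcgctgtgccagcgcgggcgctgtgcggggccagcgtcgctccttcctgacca
Mrpl48 (chr1:164351377-164351476, minus strand): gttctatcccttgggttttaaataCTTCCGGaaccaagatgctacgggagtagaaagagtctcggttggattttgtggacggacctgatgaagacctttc
Mrpl52 (chr15:31852836-31852935, plus strand): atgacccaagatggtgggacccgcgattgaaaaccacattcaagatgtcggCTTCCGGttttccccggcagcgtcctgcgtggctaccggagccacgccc
Mrpl37 (chr5:127074968-127075067, minus strand): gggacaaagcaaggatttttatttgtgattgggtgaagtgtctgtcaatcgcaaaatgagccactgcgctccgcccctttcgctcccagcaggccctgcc

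Values are log2 levels after RMA, the standard summary of Affymetrix probes with quantile normalisation across arrays. Con 5 and Con 3 had the lowest median correlation with the other arrays (0.972 and 0.982, against 0.988 to 0.994 for the rest), so results are also given without them, a choice made after the data were seen. The study's supplement describes an RNA sample of low measured integrity that was kept, and calls a fault in chip loading the likely reason. Its array is not identified, and it may not be among those described here. RNA quality was therefore not tested. Of 10 listed markers of medium spiny neurons, the main striatal neurons, 9 were measured, and their mean level lay between 11.82 and 12.02 on all arrays, with overlapping ranges in the 3 groups, as the labelled tissue would have it. Astrocyte markers (8 of 8 measured) had mean levels of 10.89 to 11.19 in Con, 10.91 to 11.09 in Nic and 10.96 to 11.20 in Con-Pf. They were 0.15 above their mean over all arrays on Con 3 and 0.13 above it on Con 5. Both values lay within the range of the other 23 arrays, from -0.14 to 0.17. Microglial markers (7 of 8 measured) were 0.12 and 0.19 below theirs. The other 23 arrays ran from -0.14 to 0.15 there, so that only Con 5 lay outside. Against Con the median log2 fold change of the astrocyte markers was -0.09 in Nic and -0.05 in Con-Pf, with 1 and 3 of the 8 lower at an unadjusted p under 0.05, and it was -0.02 in both without Con 3 and Con 5. Of 7 endothelial markers, 6 had a negative difference in Nic and all 7 in Con-Pf, with medians of -0.04 in both and 2 lower at an unadjusted p under 0.05 in Nic. Of 8 listed oligodendrocyte markers 7 were measured, and 6 had a positive difference in each group. Their medians were 0.02 in Nic and 0.05 in Con-Pf, and the same without Con 3 and Con 5. At an unadjusted p under 0.05, 1 was higher in Con-Pf and 0 in Nic, and 0 were lower in either. Only 2 of 8 listed markers of cortical or thalamic neurons, Slc17a7 and Cck, passed the filter. Their mean level ran from 7.60 to 9.21 in Con, from 7.40 to 9.80 in Nic and from 7.45 to 8.20 in Con-Pf. The highest Con value was that of Con 5. Relative to their mean over all arrays they stood at 1.22 on Con 5 and -0.38 on Con 3. The other 23 arrays ran from -0.58 to 1.81 there. In Con-Pf against Nic, Slc17a7 and Cck differed by -1.18 and -0.53 (limma adjusted p = 0.576 and 0.609, unadjusted 0.00423 and 0.00467). The 2 choroid plexus markers kept, of 8 listed, had mean levels from 6.88 to 11.82, varying widely within each group. None of these markers passed the test after adjustment, and their part in the results was not tested. In bulk tissue fewer cells of a type and less RNA per cell cannot be told apart.

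The mitoribosomal genes moved together from array to array, and the widest departures were in controls. For each array the deviation of every gene from its own mean over the 25 arrays was averaged over the 68 genes, on the log2 scale. This mean deviation was -0.09 ± 0.17 in Con (SD, n = 8), 0.05 ± 0.07 in Nic (n = 7) and 0.04 ± 0.07 in Con-Pf (n = 10). It was -0.38 on Con 5 and -0.27 on Con 3, while the other 23 arrays lay between -0.13 and 0.17. Without these animals the Con mean was -0.01 ± 0.08 (n = 6), and the 6 values, from -0.13 to 0.11, lay across most of the range of both other groups.

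**Figure D1:**
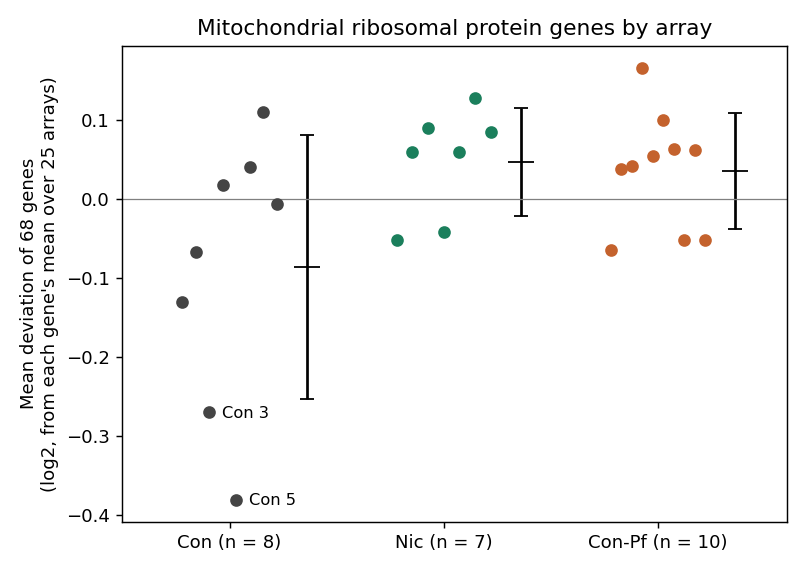
Mean log2 deviation of the 68 mitochondrial ribosomal protein genes on each array (y axis, relative to each gene's mean over the 25 arrays) by group (x axis). Points are animals, and bars show the group mean and SD. Con 3 (-0.27) and Con 5 (-0.38) lie below all other arrays.

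Con 5 held the lowest value of all 25 arrays for 50 of the 68 genes (73.5%, against 22.7% of all probe sets kept) and Con 3 for 7 (10.3%, against 7.85%). For 44 genes (64.7%, against 18.4% of all probe sets kept) these animals were the lowest pair. The median SD of a mitoribosomal gene was 0.18 in Con, 0.11 in Nic and 0.12 in Con-Pf. It was 0.12 over the 6 other Con animals when Con 3 and Con 5 were left out. The corresponding medians over all probe sets kept were 0.14, 0.09, 0.10 and 0.11. Within Con the SD ran from 0.07 for Mrpl37 to 0.42 for Mrpl52.

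**Figure D2:**
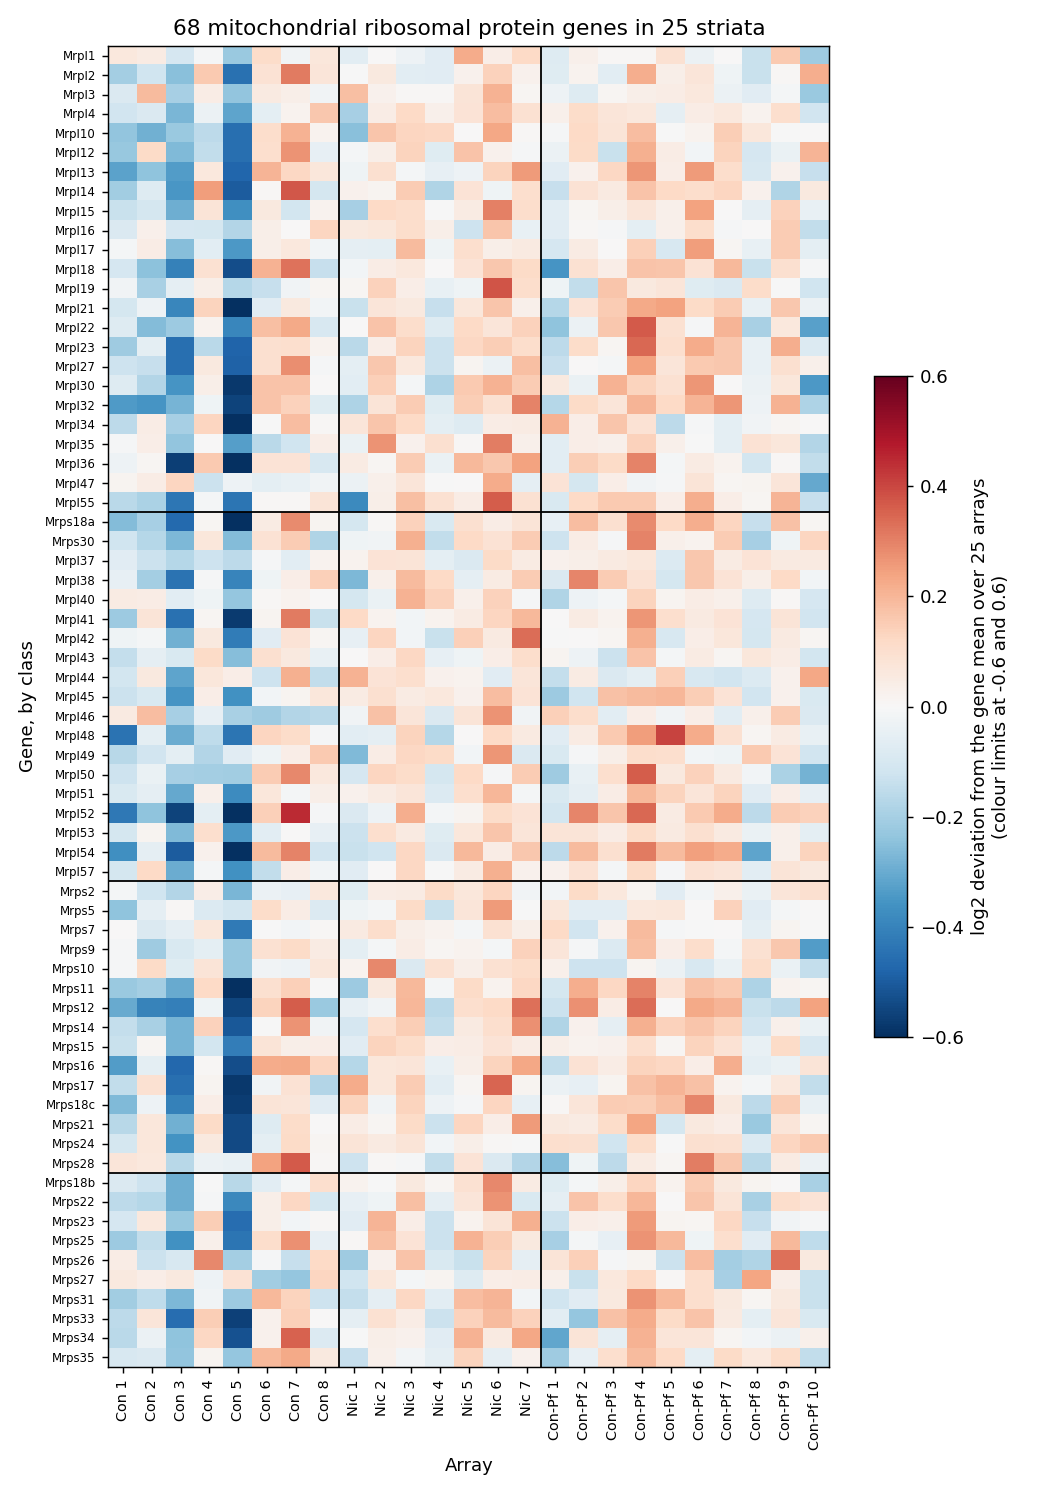
Deviation of each of the 68 genes (rows, in 4 classes separated by lines: large subunit with and without a bacterial homologue, then small subunit with and without) from its mean over the 25 arrays (columns, by group). Red is higher and blue lower on the log2 scale, with colours ending at -0.6 and 0.6. The columns of Con 3 and Con 5 are blue for most genes of all 4 classes.

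The first question was whether offspring of nicotine-drinking dams differ from controls. No mitoribosomal gene passed the test in Nic against Con (limma with Benjamini-Hochberg adjustment over 14607 probe sets, smallest adjusted p among the 68 = 0.268), and 0% of all probe sets did. At an unadjusted p under 0.05, 24 of the 68 were higher in Nic and 0 lower, against 12.3% and 3.96% of all probe sets. Of the 68, 66 had a positive log2 fold change (59.1% of all probe sets), with a median of 0.15 (0.02 over all probe sets) and a range from -0.13 to 0.26. The groups overlapped for all 68 genes (0.0274% of all probe sets had every Nic animal above every Con animal). The size and p limits set by the study (a log2 fold change beyond 0.5 either way, with p below 0.01) were met by 0 genes here (0.0205% of all probe sets), and likewise in Con-Pf against Con (0.199%) and in Con-Pf against Nic (0.103%).

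Leaving out Con 3 and Con 5, 62 of the 68 remained positive in Nic against Con (62% of all probe sets), with a median of 0.06, 0 were called after adjustment (0%), and 3 genes were higher and 1 lower at an unadjusted p under 0.05 (3.7% and 0.945% of all probe sets). With the methods' t-test, which allows unequal variances, on all arrays 0 genes passed after adjustment (0% of all probe sets), and 10 were higher and 0 lower at an unadjusted p under 0.05 (8.43% and 2.38% of all probe sets). With Con-Pf 9 and 10 counted as Con, limma called 0 genes in Nic against Con (0% of all probe sets, smallest adjusted p among the 68 = 0.463). The median was then 0.12, and 16 genes were higher and 0 lower at an unadjusted p under 0.05 (8.69% and 1.99%).

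Mrpl35, counterpart of a bacterial large subunit protein, had the smallest p among the 68 genes. It ran from 9.83 to 10.19 in Con (median 10.09), from 10.11 to 10.46 in Nic (median 10.19) and from 9.98 to 10.29 in Con-Pf (median 10.18). The lowest values were those of Con 5 and Con 3, the highest those of Nic 6 and Nic 2, and the groups overlapped. The log2 fold change in Nic against Con was 0.20 (SE 0.06, limma adjusted p = 0.268), and 0.13 without Con 3 and Con 5.

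Mrps17, which binds the RNA of the small subunit, had the largest positive log2 fold change of the 68. Values ran from 8.89 to 9.56 in Con (median 9.38) and from 9.40 to 9.82 in Nic (median 9.53). The difference was 0.26 (SE 0.09, limma adjusted p = 0.268), and 0.13 when Con 3 and Con 5, the lowest arrays at 9.01 and 8.89, were left out. Mrps12, a protein of the decoding centre, and Mrpl36, counterpart of a small bacterial large subunit protein, followed with differences of 0.25 and 0.24. For Mrpl36 the difference came to 0.07 without Con 3 and Con 5, and for Mrps12 to 0.15.

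Mrpl19, another large subunit protein with a bacterial counterpart, was among the few whose difference hardly changed without those animals. Its level ran from 7.98 to 8.21 in Con (median 8.13) and from 8.13 to 8.55 in Nic (median 8.21). Con 3, at 8.12, was near the middle of its group, and the highest value, 8.55, was that of Nic 6. The difference was 0.15 with all arrays and 0.14 without Con 3 and Con 5 (limma adjusted p = 0.268 and 0.953).

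Mrps28, the mitochondrial counterpart of bacterial ribosomal protein S1, stood at the other end of the ranking. The level ran from 6.83 to 7.37 in Con (median 7.04), from 6.82 to 7.08 in Nic (median 6.91) and from 6.74 to 7.31 in Con-Pf (median 6.99). Here Con 7 and Con 6 held the highest Con values, both above the highest Nic value, and Con 3 the lowest. The ranges of the groups overlapped. The difference from Con was -0.13 in Nic (SE 0.08, limma adjusted p = 0.371) and -0.07 in Con-Pf (SE 0.07, limma adjusted p = 0.547). Without Con 3 and Con 5 it was -0.18 and -0.13. Mrps28 was the gene counted above as lower in Nic at an unadjusted p under 0.05 (limma) without those animals. In Nic the other gene with a negative value was Mrps26, at -0.01. The value of Mrps27, an RNA-binding protein of the pentatricopeptide repeat family, was 0.01, and it turned negative under both other scalings tried.

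The next question was whether offspring of food-restricted dams differ from controls. These comparisons share the Con animals, so their values for a gene are not independent of each other. In Con-Pf against Con no mitoribosomal gene passed the test (smallest adjusted p = 0.0553, for Mrpl37), whereas 1.26% of all probe sets did. At an unadjusted p under 0.05, 26 of the 68 were higher in Con-Pf and 0 lower, against 14.2% and 7.76% of all probe sets. A positive log2 fold change was found for 63 (55.8% of all probe sets), with a median of 0.13 (0.02 over all probe sets) and a range from -0.07 to 0.32. The groups overlapped for all 68 genes (0.233% of all probe sets had every Con-Pf animal above every Con animal and 0.0411% below).

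Leaving out Con 3 and Con 5, 53 of the 68 were positive in Con-Pf against Con (55.2% of all probe sets), with a median of 0.04. Of the 68, 0 were called after adjustment (0.582% of all probe sets), and 2 were higher and 0 lower at an unadjusted p under 0.05 (5.55% and 2.55% of all probe sets). The methods' t-test on all arrays called 0 after adjustment (0.452% of all probe sets), with 13 higher and 0 lower at an unadjusted p under 0.05 (9.17% and 4.07%). With Con-Pf 9 and 10 counted as Con the smallest adjusted p in Con-Pf against Con was 0.265 (limma, 0.185% of all probe sets called) and the median 0.11, with 21 genes higher and 0 lower at an unadjusted p under 0.05 (9.07% and 2.71%).

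Mrpl37, a large subunit protein specific to mitochondria, had the smallest p. Levels were 9.38 to 9.57 in Con (median 9.45), from 9.46 to 9.67 in Nic (median 9.60) and from 9.47 to 9.71 in Con-Pf (median 9.60). All Con-Pf animals but Con-Pf 5, at 9.47, lay above the highest Con value, 9.57. The log2 fold change was 0.14 (SE 0.04, limma adjusted p = 0.0553) in Con-Pf and 0.12 (SE 0.04, limma adjusted p = 0.268) in Nic, and 0.11 and 0.09 without Con 3 and Con 5. The call depended on single arrays: the adjusted p was 0.0345 when Con 6 was left out, 0.0437 for Con 7, 0.0292 for Con 8 and 0.0348 for Con-Pf 5, and 0.330 when both Con 3 and Con 5 were left out.

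Mrpl48, also specific to mitochondria, ran from 7.99 to 8.56 in Con (median 8.33), from 8.26 to 8.57 in Nic (median 8.43) and from 8.37 to 8.84 in Con-Pf (median 8.50). Con 1 and Con 5 were lowest, both at 7.99, and Con-Pf 5, the lowest Con-Pf animal for Mrpl37, held the highest. The difference from Con was 0.26 in Con-Pf (SE 0.08, limma adjusted p = 0.0849), and 0.18 without Con 3 and Con 5. It and Mrpl37 were the genes with an unadjusted p under 0.05 without those animals (0.0240 and 0.00632, limma).

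Mrpl52, likewise specific to mitochondria, had the largest difference of the 68 and the widest spread in Con. Its level ran from 9.77 to 11.08 in Con (median 10.48) and from 10.47 to 10.98 in Con-Pf (median 10.79), so that Con held both the lowest value, on Con 5, and the highest, on Con 7. The difference was 0.32 (SE 0.12, limma adjusted p = 0.131), and 0.15 without Con 3 and Con 5. Its 95% interval, from 0.08 to 0.56, was the single one of the 68 in this comparison to reach beyond 0.5, the size the study set for a change.

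Mrpl23, at the exit of the tunnel through which the new protein leaves, ran from 9.74 to 10.32 in Con (median 10.11) and from 10.06 to 10.56 in Con-Pf (median 10.33). Con 5 and Con 3 were again the lowest, at 9.74 and 9.77. The difference was 0.23 (SE 0.08, limma adjusted p = 0.117), and 0.12 without them. Below 0 in Con-Pf against Con were Mrps28, Mrps10, Mrpl1, Mrpl47 and Mrpl3, from -0.07 to -0.00091.

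**Figure D3:**
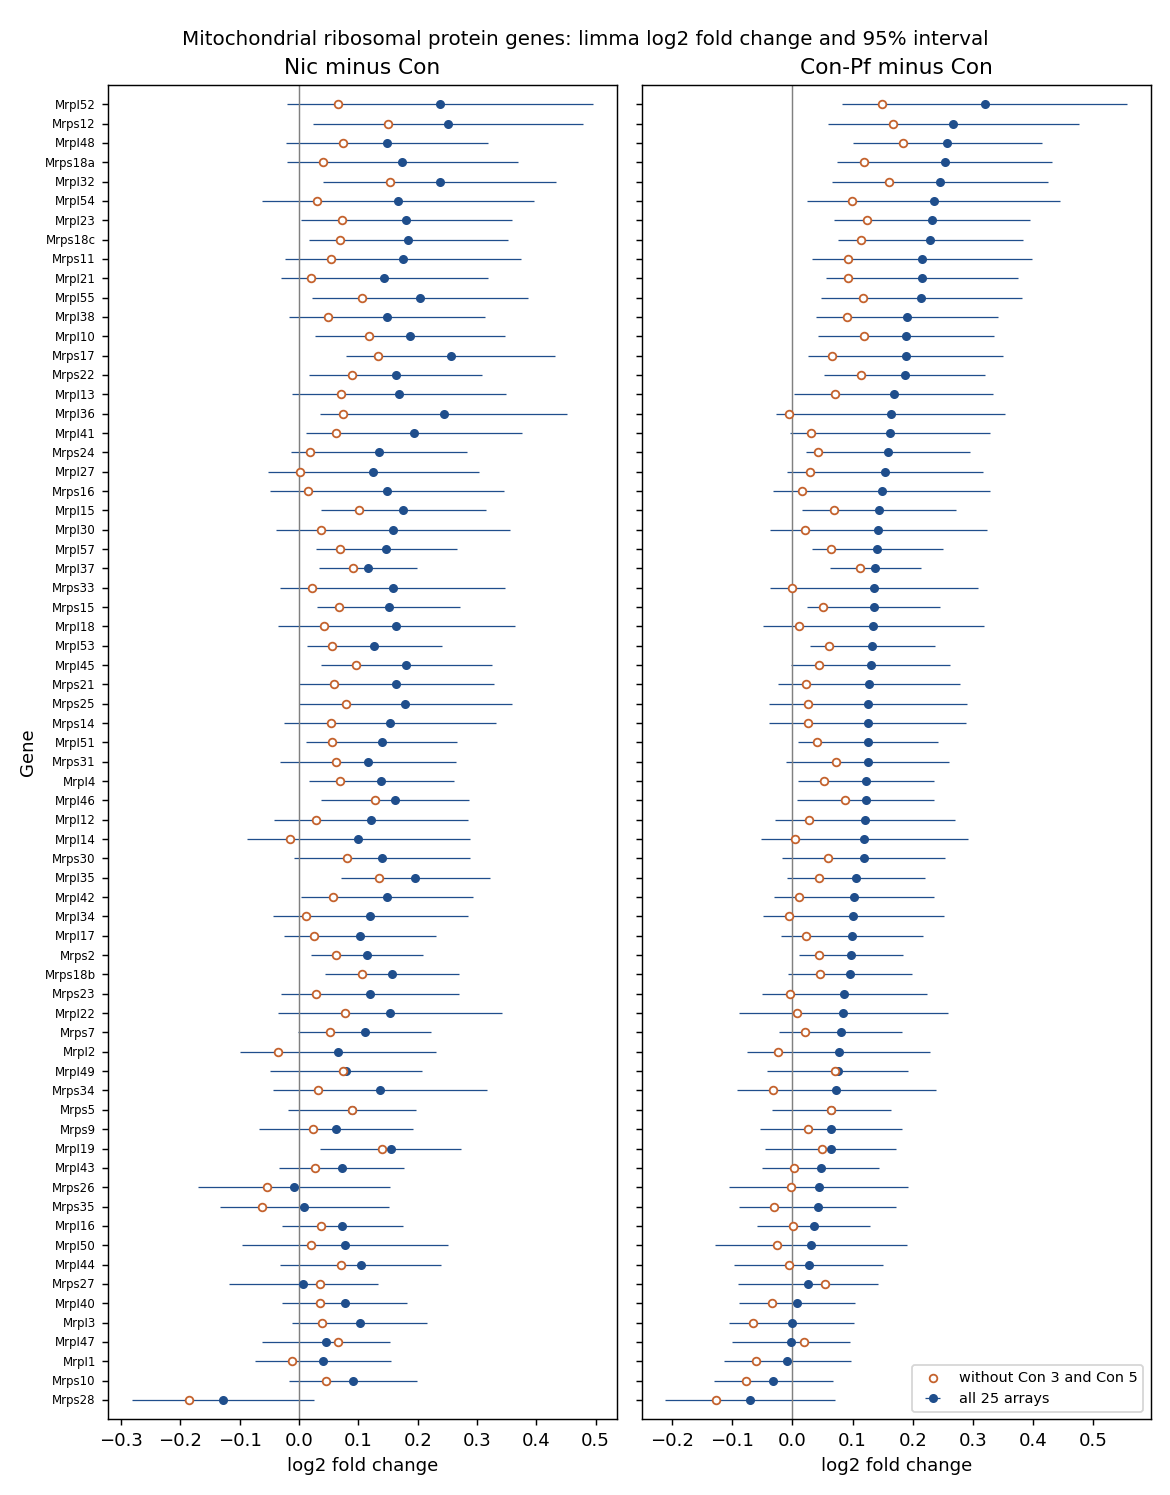
Log2 fold change of each of the 68 genes (y axis, ordered by Con-Pf minus Con) in Nic minus Con (left) and Con-Pf minus Con (right). Filled points with lines are limma estimates and 95% intervals over all 25 arrays, open points the estimates without Con 3 and Con 5. The median of 0.15 on the left and 0.13 on the right came to 0.06 and 0.04 without those arrays, and Mrps28 is lowest on both sides.

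The last comparison set the food-restricted group against the nicotine group, to whose food intake it had been matched. No mitoribosomal gene passed the test in Con-Pf against Nic (smallest adjusted p = 0.959), against 0.185% of all probe sets. At an unadjusted p under 0.05, 0 were higher (1.82% of all probe sets) and 1 was lower (2.54%), and without Con 3 and Con 5, which enter this comparison through the shared estimate of the spread, 0 were higher and 2 lower (2.33% and 3.42%). The 2 groups overlapped for all 68 genes (0.0685% of all probe sets had every Con-Pf animal above every Nic animal and 0.0137% below). A positive value was found for 28 of the 68 (44.1% of all probe sets), with a median of -0.02 (-0.01 over all probe sets) and a range from -0.12 to 0.11. The methods' t-test called 0 after adjustment (0.0411% of all probe sets), with 0 higher and 2 lower at an unadjusted p under 0.05 (2.71% and 3.82%). With Con-Pf 9 and 10 counted as Con, 0 were called (limma, 0.0342% of all probe sets), and 0 were higher and 1 lower at an unadjusted p under 0.05 (1.58% and 1.74%). All 68 95% intervals lay within -0.28 and 0.33, so a difference of 0.5 lay outside each of them.

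The gene with an unadjusted p under 0.05 was Mrps10, a small subunit protein with a bacterial counterpart. Its level ran from 8.61 to 8.99 in Nic (median 8.79), from 8.56 to 8.81 in Con-Pf (median 8.66) and from 8.48 to 8.82 in Con (median 8.69). Nic 2 was the highest animal and the ranges overlapped. The difference in Con-Pf against Nic was -0.12 (SE 0.05, limma adjusted p = 0.959). Mrpl3, which reaches towards the peptidyl transferase centre, had a difference of -0.10, from a Nic range of 8.68 to 8.88 to a Con-Pf range of 8.45 to 8.73. Mrpl48 had the largest positive value, 0.11, followed by Mrpl52 at 0.08 and Mrps18a at 0.08 (limma adjusted p = 0.999 for each).

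**Figure D4:**
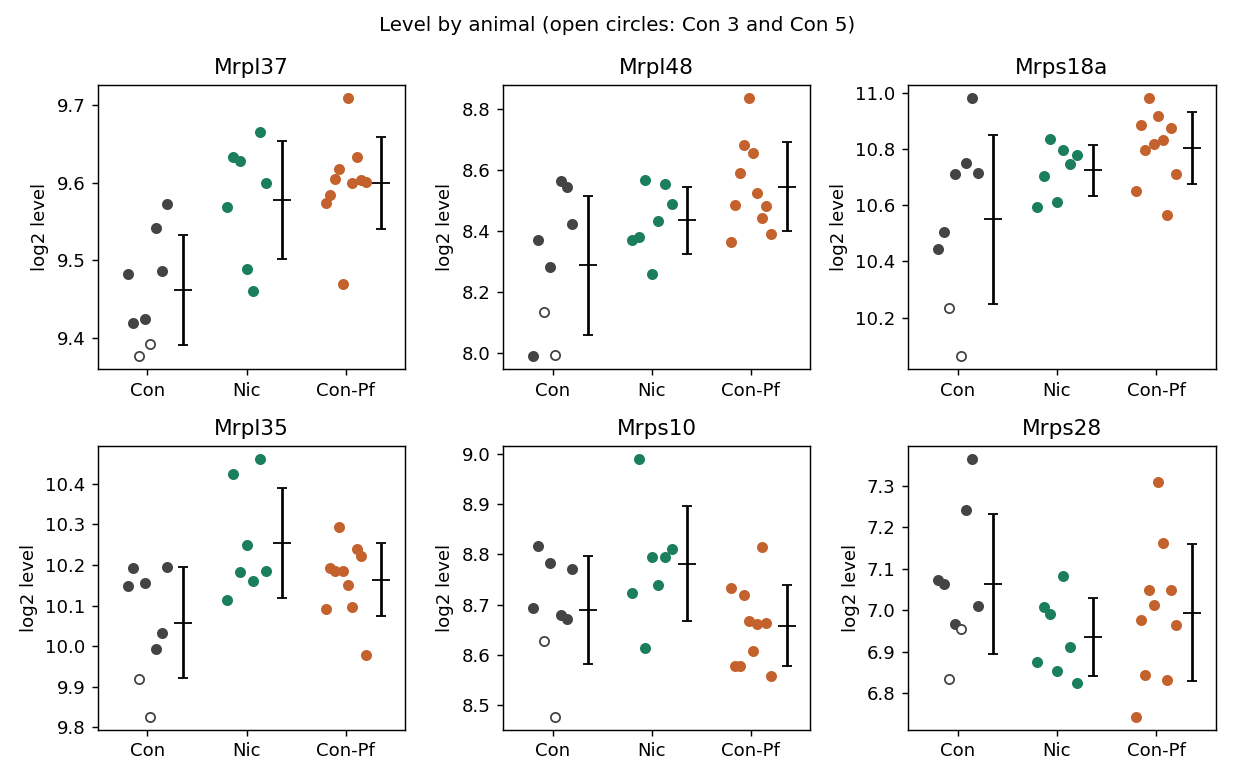
Log2 level of Mrpl37, Mrpl48, Mrps18a, Mrpl35, Mrps10 and Mrps28 in each animal (points) by group, with the mean and SD beside them. Open circles are Con 3 and Con 5. The y axes differ between genes and do not start at 0. The groups overlap for all 6 genes, and Con 5 is the lowest animal for Mrps18a, Mrpl35 and Mrps10.

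By class, the median log2 fold change in Nic against Con was 0.15 for large subunit proteins with a bacterial homologue, 0.15 for mitochondria-specific ones, 0.15 for small subunit proteins with a bacterial homologue and 0.13 for mitochondria-specific ones. In Con-Pf against Con the same medians were 0.12, 0.13, 0.13 and 0.09. In the same order of classes, 24 of 24, 19 of 19, 14 of 15 and 9 of 10 genes were positive in Nic against Con. Of all probe sets 59.1% were. Without Con 3 and Con 5, 21, 19, 14 and 8 were positive there (62% of all probe sets). In Con-Pf against Con 21, 19, 13 and 10 were positive (55.8% of all probe sets). In Con-Pf against Con without those animals 5 of the 10 mitochondria-specific small subunit genes were positive, with a median of 0.01, against 16 of 19 in the large subunit, with a median of 0.06. Of genes with a bacterial homologue, 19 of 24 in the large subunit (median 0.03) and 13 of 15 in the small subunit (median 0.04) were positive. Of all probe sets 55.2% were. The difference between classes was not tested.

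The vertebrate mitoribosome holds a trio of proteins related to bacterial S18, of which Mrps18c is the direct counterpart, Mrps18b a second small subunit protein and Mrps18a a protein of the large subunit. Mrps18a ran from 10.06 to 10.98 in Con (median 10.61), from 10.60 to 10.84 in Nic (median 10.75) and from 10.56 to 10.98 in Con-Pf (median 10.83). Mrps18c ran from 9.93 to 10.58 in Con (median 10.45), from 10.45 to 10.64 in Nic (median 10.49) and from 10.34 to 10.79 in Con-Pf (median 10.61). Both had their lowest values on Con 5 and Con 3. Mrps18b ran from 8.55 to 8.94 in Con (median 8.76), from 8.84 to 9.13 in Nic (median 8.89) and from 8.65 to 8.99 in Con-Pf (median 8.86), with Con 3 lowest.

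In Con-Pf against Con the differences were 0.25 for Mrps18a, 0.23 for Mrps18c and 0.10 for Mrps18b (limma adjusted p = 0.117, 0.107 and 0.262), and without Con 3 and Con 5 they were 0.12, 0.11 and 0.05. In Nic against Con they were 0.17, 0.18 and 0.16 (limma adjusted p = 0.342, 0.285 and 0.268), and 0.04, 0.07 and 0.11 without those arrays. Mrps18b thus had the smallest of the 3 differences in Con-Pf against Con, and the largest without Con 3 and Con 5 in Nic against Con. The differences between paralogues were not tested.

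Mrpl10 and Mrpl12 form the stalk to which translation factors bind. Mrpl10 ran from 9.94 to 10.61 in Con (median 10.21), from 10.14 to 10.63 in Nic (median 10.52) and from 10.39 to 10.58 in Con-Pf (median 10.44). Its difference from Con was 0.19 in both groups (limma adjusted p = 0.279 in Nic and 0.145 in Con-Pf), and 0.12 in both without Con 3 and Con 5. Mrpl12 ran from 8.31 to 9.03 in Con (median 8.66), from 8.69 to 8.94 in Nic (median 8.79) and from 8.63 to 8.98 in Con-Pf (median 8.78), and its difference of 0.12 in both groups came to 0.03 without them.

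Mrps12, which lies at the site where codons are read, ran from 8.50 to 9.41 in Con (median 8.78), from 8.88 to 9.38 in Nic (median 9.15) and from 8.89 to 9.38 in Con-Pf (median 9.17). The highest Con value was that of Con 7, and the Con-Pf difference of 0.27 (SE 0.10, limma adjusted p = 0.146) was 0.34 without that animal (limma adjusted p = 0.0392) and 0.17 without Con 3 and Con 5 (limma adjusted p = 0.754). Mrpl45, which helps hold the ribosome at the inner membrane, ran from 9.09 to 9.52 in Con (median 9.40) and from 9.48 to 9.64 in Nic (median 9.52), a difference of 0.18 (limma adjusted p = 0.268) and of 0.10 without Con 3 and Con 5. Mrps30, placed in the large subunit despite its name, had differences from Con of 0.14 in Nic and 0.12 in Con-Pf, and of 0.08 and 0.06 without those arrays. For Mrpl44, which carries a ribonuclease III fold, the values were 0.10 and 0.03, and 0.07 and -0.0059 without them.

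Another 4 genes, Mrpl40, Mrpl41, Mrpl42 and Mrps11, had a second probe set, all of them kept. For Mrpl41 the pair gave 0.19 and 0.20 in Nic against Con and 0.16 and 0.17 in Con-Pf against Con. For Mrps11 the values were 0.18 and 0.03 in Nic and 0.22 and 0.05 in Con-Pf, so the probe sets differed in size. Without Con 3 and Con 5 the Mrpl41 pair gave 0.06 and 0.07 in Nic and 0.03 and 0.03 in Con-Pf, and the Mrps11 pair 0.05 and -0.03 in Nic and 0.09 and -0.0083 in Con-Pf. For Mrpl40 the values in Con-Pf against Con were 0.0075 and -0.02, and -0.03 and -0.05 without those arrays. In Con-Pf against Nic the Mrpl40 pair gave -0.07 and -0.11 (limma unadjusted p = 0.168 and 0.0357). For Mrpl42 the values were 0.15 and 0.07 in Nic against Con, and 0.10 and 0.05 in Con-Pf against Con. Without Con 3 and Con 5 they were 0.06 and 0.06 in Nic, and 0.01 and 0.04 in Con-Pf.

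The rest of the mitochondrial translation machinery was set beside the 68 genes, with 0 of its listed genes called in any comparison. Another 5 mitoribosomal proteins that carry other symbols, of 6 listed, had a median of 0.07 in Nic against Con and 0.10 in Con-Pf against Con. Without Con 3 and Con 5 the medians were 0.01 and 0.05. Chchd1, a small subunit protein, had differences from Con of 0.28 in Nic and 0.25 in Con-Pf (limma adjusted p = 0.302 and 0.235), and of 0.08 and 0.05 without those arrays. Aurkaip1, also of the small subunit, had 0.14 in Con-Pf against Con (limma adjusted p = 0.149) and 0.05 without them. The GTP-binding small subunit protein Dap3 had 0.07 in Nic against Con, and 0.05 without them.

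Factors that act on the finished ribosome had medians nearer to 0 than the 68 genes, or below it. The 9 translation factors measured, of 13 listed, had a median of -0.0012 in Nic against Con and -0.04 in Con-Pf against Con. Of them 4 and 3 were on the positive side. Without Con 3 and Con 5 the medians were 0.02 and -0.02. Tufm, the elongation factor that brings aminoacyl-tRNA to the ribosome, had the smallest p in both comparisons, at 0.12 (limma adjusted p = 0.268) and 0.14 (limma adjusted p = 0.0734), and 0.08 and 0.10 without those arrays. Mtfmt, which formylates the initiator methionyl-tRNA, had 0.13 in Nic against Con and 0.06 without them. Gfm2, which helps recycle the ribosome, had -0.12 in Con-Pf against Con and -0.04 without them.

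The 11 mitochondrial aminoacyl-tRNA synthetases kept, of 17 listed, had medians of -0.06 in both comparisons with Con, with 3 and 2 positive. Without Con 3 and Con 5 the medians were -0.01 in Nic and -0.05 in Con-Pf. Hars2, which charges the histidine tRNA, had -0.21 in Con-Pf against Con (limma adjusted p = 0.127) and -0.09 without those arrays (limma adjusted p = 0.762). Tars2, for the threonine tRNA, had -0.06 in both comparisons and -0.05 in both without them. Sars2, for the serine tRNA, had -0.10 in Nic against Con and was further from 0 without them, at -0.15. The difference between these lists and the 68 genes was not tested.

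The 19 assembly factors of the mitoribosome kept, of 22 listed, had medians of 0.09 in Nic against Con and 0.05 in Con-Pf against Con. Of them 15 and 17 were positive. Without Con 3 and Con 5 the medians were 0.07 and 0.02. Ddx28, a helicase of large subunit assembly, had 0.14 and 0.12 (limma adjusted p = 0.268 and 0.103), and 0.11 and 0.09 without those arrays. The GTPase Gtpbp10 had 0.19 in Nic against Con (limma adjusted p = 0.268) and 0.16 without them. Mterf3 had 0.12 in Con-Pf against Con and 0.07 without them.

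Of 14 listed genes for mitochondrial transcription, RNA and DNA maintenance, 13 were kept. Of these, 9 were positive in Nic and 5 in Con-Pf, with medians of 0.05 and -0.0082. Without Con 3 and Con 5 the medians were 0.04 and 0.01. Slirp, which protects mitochondrial messenger RNAs, had 0.22 in Nic and 0.21 in Con-Pf (limma adjusted p = 0.268 and 0.129), and 0.10 and 0.09 without those arrays (limma adjusted p = 0.953 and 0.771). Its binding partner Lrpprc had -0.08 in Con-Pf against Con and -0.04 without them. Tefm, an elongation factor of mitochondrial transcription, had 0.16 in Nic against Con and 0.12 without them.

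The 9 regulators of mitochondrial biogenesis kept, of 11 listed, had medians of 0.05 in Nic and 0.03 in Con-Pf. Without Con 3 and Con 5 the medians were 0.02 and 0.01. Nrf1, whose motif was searched in the promoters, had 0.11 in Nic and 0.08 in Con-Pf (limma adjusted p = 0.277 and 0.254), and 0.06 and 0.03 without those arrays. The coactivator gene Ppargc1b had 0.15 in Nic against Con and 0.06 without them. The related Pprc1 had 0.15 in Con-Pf against Con (limma adjusted p = 0.124) and was hardly changed without them, at 0.15 (limma adjusted p = 0.468).

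Nuclear genes of oxidative phosphorylation subunits, cytosolic ribosomal proteins and protein import had medians close to those of the 68 genes. Over 67 oxidative phosphorylation genes these were 0.13 in Nic against Con and 0.14 in Con-Pf against Con, and 0.04 and 0.02 without Con 3 and Con 5. Over 68 cytosolic ribosomal protein genes they were 0.12 and 0.13, and 0.02 and 0.02 without those arrays. Over 18 import genes they were 0.11 and 0.10, and 0.03 and 0.04 without them. The genes with the smallest p in these lists were, in Nic against Con, Ndufb6 of complex I (0.25, and 0.17 without those arrays), Uqcrh of complex III (0.22 and 0.11), Rps2 (0.20 and 0.14), Rpl18 (0.23 and 0.14), the import receptor Tomm22 (0.21 and 0.11) and the inner membrane translocase subunit Timm17b (0.18 and 0.09). In Con-Pf against Con they were Uqcrq (0.29 and 0.15) and Uqcr11 (0.24 and 0.13) of complex III, Rpl18 (0.24 and 0.15), Rplp2 (0.17 and 0.09), the outer membrane channel Tomm40 (0.12 and 0.08) and Timm17b (0.17 and 0.08).

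Con 3 and Con 5 stood low in some of these lists and not in others. Their mean deviations were -0.31 and -0.42 over the oxidative phosphorylation genes, -0.35 and -0.46 over the cytosolic ribosomal genes, and -0.19 and -0.27 over the import genes, in each list below all other 23 arrays. Over the assembly factors they were -0.08 and -0.12 and over the translation factors -0.02 and -0.03, both within the range of the other arrays. Over the aminoacyl-tRNA synthetases they were 0.09 and 0.13, above all other arrays.

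**Figure D5:**
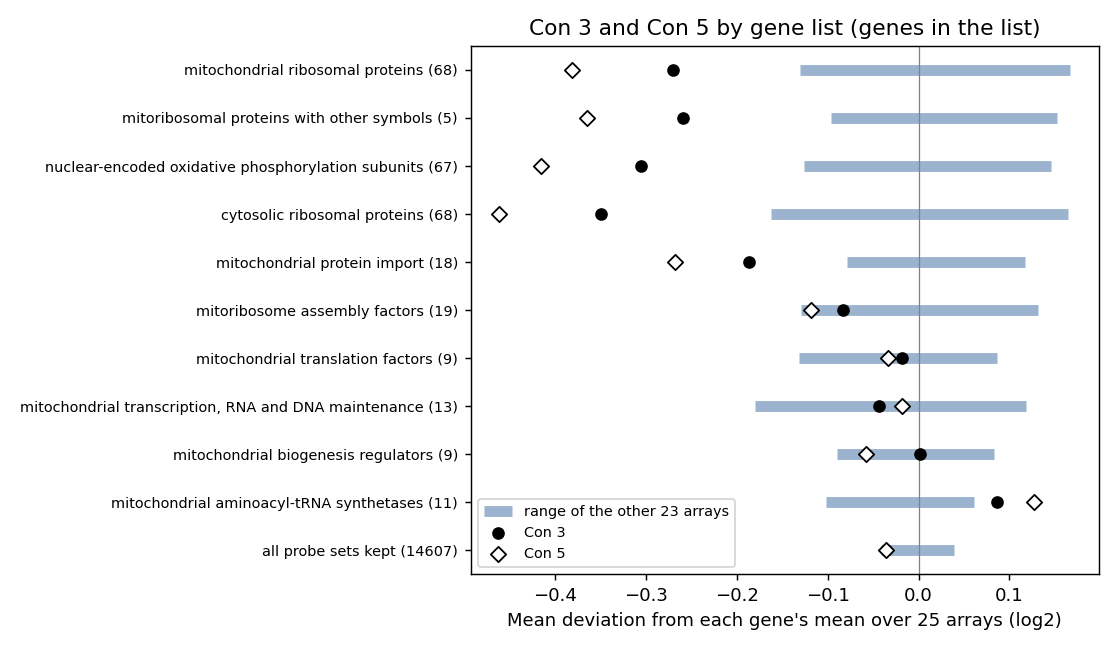
Mean log2 deviation (x axis, from each gene's mean over the 25 arrays) on Con 3 (filled circles) and Con 5 (open diamonds) for each gene list (y axis, with the number of genes), beside the range of the other 23 arrays (bars). Both arrays lie below that range for mitochondrial ribosomal proteins, oxidative phosphorylation, cytosolic ribosomal proteins and import, within it for translation and assembly factors, and above it for aminoacyl-tRNA synthetases.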

How the data were processed

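Striatal RNA of 25 rats was measured on 1 array each. The authors background-corrected, quantile normalised and summarised the arrays with RMA. They deposited 1 log2 level for each probe set. The submitters' processing notes also name Affymetrix Expression Console 1.1. The authors removed further arrays before deposit. Groups were taken from the sample titles. Of 29214 probe sets, 14607 were kept, those whose mean reached the median (quantile 0.5). Gene names came from the platform's probe annotation, and all 68 symbols were unchanged in RefSeq. Differences were tested with limma 3.58.1 (R 4.3.3, with data.table in version 1.17.8) in 1 model over the 3 groups, with Benjamini-Hochberg adjustment across the 14607 probe sets (calls under 0.05) and with 95% intervals. The steps were tested on simulated data. Gene lists were described by counts and medians only. Motifs were counted in promoter windows of 300 bases from RefSeq (GRCr8), found for 54 of the 68 genes. Genes named in the text were the 5 with the smallest p and the 3 highest and 3 lowest in each comparison, those with known roles, and, in the comparisons with Con, the 2 genes of each other gene list with the smallest p. Those of Con-Pf against Nic and most cell type markers were not named, and a few further members were picked for the text once their values were known. The members and lists were chosen with earlier results of these data known. Alternatives were other t-tests, fits, filters, scalings, probe-set rules, a replicate block, the grouping of Con-Pf 9 and 10, and leaving out each array. The number of arrays limits the precision, and single-probe signals were not analysed here. Python 3.11.15 and matplotlib 3.10.9 drew the figures.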

Additional observations from a re-analysis of the deposited data

Results flagged for a closer look

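Dixon's test was run on 75 sets of values in 1 group, those of the named genes and of the mean deviation over all members. Of these, 3 held an animal far from the others, and chance alone gives about 1 in 20 such sets. The test sets an extreme value against its nearest neighbour, so animals that are low together, as Con 3 and Con 5 were, can hide each other. Mrpl40 was 8.62 on Con 5, with the nearest Con animal at 8.78. Mrps18b was 9.13 on Nic 6, with the nearest Nic animal at 8.93. Mrpl3 was 8.45 on Con-Pf 10, with the nearest Con-Pf animal at 8.59.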

How the results depend on the processing

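In Nic against Con and in Con-Pf against Nic, 0 of the 68 genes were called under all 40 alternatives. Fits without a single array aside, 0% of all probe sets were called in Nic against Con. In Con-Pf against Nic the share ran from 0.0342% to 0.377%. In Con-Pf against Con the count went from 0 to 1 (Mrpl37, limma adjusted p = 0.0415) under a stricter filter, which left 36 of the genes. Under that filter 1.7% of all probe sets were called. The count lay between 0 and 6 when single arrays were left out. There 2 genes were called without Con 6, 6 without Con 7 (Mrpl10, Mrpl37, Mrpl48, Mrpl52, Mrps12 and Mrps18a), 1 without Con 8 and 1 without Con-Pf 5. Median log2 fold changes with single arrays left out lay between 0.10 and 0.17 in Nic against Con, between 0.08 and 0.15 in Con-Pf against Con and between -0.03 and 0.003 in Con-Pf against Nic, with those in Nic and Con-Pf against Con lowest without Con 5 and highest without Con 7. Genes with an unadjusted p under 0.05 that were higher numbered 13 without Con 3, 10 without Con 5 and 44 without Con 7 in Nic, and 15, 15 and 37 in Con-Pf. The shares of all probe sets were not counted with single arrays left out. Whether the 68 genes moved differently from the other probe sets in those fits is therefore not known. Centring on the array median gave medians of 0.12, 0.10 and -0.01, and a further quantile normalisation 0.12, 0.10 and -0.01. In Nic against Con, 15 genes were then higher and 1 lower at an unadjusted p under 0.05 after centring (6.89% and 8.39% of all probe sets) and 16 and 0 after quantile normalisation (8% and 7.33%), against 24 and 0 before, and in Con-Pf 20 and 23 were higher (10.1% and 11.1%). The methods' t-test with unequal variances gave 10 higher genes at an unadjusted p under 0.05 in Nic, and 13 in Con-Pf. Limma gave 24 and 26. A t-test with pooled variance gave 9 and 21 (8.3% and 11.6% of all probe sets). Limma on the 2 compared groups alone gave 15 and 24 (9.06% and 12.2%). The cause of these differences was not tested.

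With the replicate number as a block over replicates 1 to 7, 0 genes were called in each comparison. Of all probe sets 0%, 1.05% and 0.0958% were called. The medians were 0.16, 0.15 and 0.005. At an unadjusted p under 0.05, 33 genes were higher than in Con in Nic and 33 in Con-Pf (14.8% and 16.5% of all probe sets). Without the block the same animals gave 26 and 31 (14.2% and 15.9%). The titles number the animals but do not say whether equal numbers belong together. Deviations of same-numbered animals correlated between -0.362 and 0.341, and 6 of 21 pairs correlated best with their own number. Whether this is more than chance gives was not tested, so pairing by number stays undecided.

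Values near 0 changed sign. Mrpl1 in Con-Pf against Con was 0.023 in replicates 1 to 7, with the block and without it, and between -0.039 and 0.013 without single arrays. Mrps26 in Nic against Con was 0.011 in replicates 1 to 7, with the block and without it, and between -0.040 and 0.035 without single arrays. Mrps27 in Nic against Con was -0.0075 with array weights, -0.018 after a further quantile normalisation, -0.022 after centring and between -0.024 and 0.027 without single arrays.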
